A study of Mus musculus with 4 samples.

Results

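The genes described here are 10 brakes and sensors of the cell cycle. They are 6 genes for cyclin-dependent kinase (CDK) inhibitors (Cdkn1a, Cdkn1b, Cdkn1c, Cdkn2a, Cdkn2b and Cdkn2c), the tumour suppressor gene Trp53, and the p53-related genes Mdm2, Ccng1 and Gadd45a. Their probes were found through the RefSeq accession that the array files attach to each probe, which gave 13 of the 39429 gene probes and 10 of the 19751 named genes. Of these, 9 probes of 8 genes were bright enough to be tested.

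C2C12 is an established mouse myogenic line derived from satellite cells of thigh muscle. Proliferating cultures at the 3rd day of growth were given palmitate, a saturated fatty acid complexed to albumin, at 0.1 mmol/l for 48 h in medium with 5% fetal bovine serum. The control cultures had the same medium with the ethanol and fatty-acid-free albumin vehicle, although a label of the control RNA names another serum and another time. The study's protocol was followed here. If that label holds, serum and time cannot be told apart from palmitate for any gene. Both kinds of culture came from 1 cell line, grown beforehand with 10% serum, and stand for that line only. Each of 4 two-colour Agilent arrays carried RNA of 1 palmitate culture (cyanine-5) and 1 control culture (cyanine-3). A log2 ratio is palmitate over control within an array, and a positive ratio means a stronger signal in the palmitate culture. The dyes were never exchanged, so a dye effect and a palmitate effect cannot be told apart for any gene.

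Progress through the cell cycle is driven by cyclins bound to CDKs. The Cip/Kip proteins p21 (Cdkn1a), p27 (Cdkn1b) and p57 (Cdkn1c) bind cyclin-CDK complexes, and the INK4 proteins p16 (Cdkn2a), p15 (Cdkn2b) and p18 (Cdkn2c) bind CDK4 and CDK6 and keep them from their cyclins. p53, the product of Trp53, is a transcription factor held at a low level by the ubiquitin ligase Mdm2 and freed when DNA is damaged or the cell is stressed. Cdkn1a, Mdm2, Ccng1 and Gadd45a are classical p53 targets. In muscle, p21 and p57 are known for their part in the exit of myoblasts from the cell cycle before they fuse.

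The promoters of 9 of the 10 genes were found in the RefSeq table of build GRCm38.p6, which has 12 promoters for them and none for Cdkn1c. They are shown for Cdkn1a, Ccng1 and Cdkn1b, which were chosen from the results below, as the 250 bases before the start, in the sense of the gene. Capitals mark the half-sites of a p53 response element, the GC box GGGCGG and the CCAAT box CCAAT, each searched on both strands. The half-sites are the 10-base p53 motif with an intact core, counted where 2 of them lie within 13 bases of each other with at most 2 mismatches between them.
Cdkn1a, upstream start (chr17:29090729-29090978, plus strand): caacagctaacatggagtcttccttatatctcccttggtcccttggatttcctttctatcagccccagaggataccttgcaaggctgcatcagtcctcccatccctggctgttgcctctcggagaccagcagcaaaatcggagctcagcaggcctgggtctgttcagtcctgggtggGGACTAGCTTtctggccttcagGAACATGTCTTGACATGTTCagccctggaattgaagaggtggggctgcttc
Cdkn1a, downstream start (chr17:29093519-29093768, plus strand): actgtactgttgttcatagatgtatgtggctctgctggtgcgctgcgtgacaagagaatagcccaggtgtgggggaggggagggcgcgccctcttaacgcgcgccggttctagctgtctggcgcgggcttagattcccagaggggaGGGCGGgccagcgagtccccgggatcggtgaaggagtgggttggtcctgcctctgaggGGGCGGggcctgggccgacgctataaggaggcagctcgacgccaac
Ccng1 (chr11:40755287-40755536, minus strand): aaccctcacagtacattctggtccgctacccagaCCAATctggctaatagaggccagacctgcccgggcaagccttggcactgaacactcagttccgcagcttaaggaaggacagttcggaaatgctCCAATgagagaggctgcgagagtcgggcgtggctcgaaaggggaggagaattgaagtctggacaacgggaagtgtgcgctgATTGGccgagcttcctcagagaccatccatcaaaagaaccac
Cdkn1b (chr6:134920151-134920400, plus strand): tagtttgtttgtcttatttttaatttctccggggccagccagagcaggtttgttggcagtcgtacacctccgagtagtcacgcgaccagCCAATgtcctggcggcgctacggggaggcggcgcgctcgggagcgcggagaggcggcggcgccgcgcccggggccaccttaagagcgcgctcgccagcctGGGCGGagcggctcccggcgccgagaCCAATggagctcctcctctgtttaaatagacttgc
The upstream Cdkn1a promoter held 3 p53 half-sites, and the last 2 of them adjoin without a spacer. A p53 element of this kind was present in 1.75% of the 32851 mouse promoters of the same length and in none of the other 11 promoters of these genes. The downstream Cdkn1a promoter held 2 GC boxes, Ccng1 held 3 CCAAT boxes, and Cdkn1b held 1 GC box and 2 CCAAT boxes. Over all promoters, 32.7% held a GC box and 33.8% a CCAAT box. A match is a run of letters and was not tested as a binding site, and p53 elements of other genes often lie outside such a window.

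Over the whole arrays, the 4 replicates were not alike. The log2 ratios of replicates 2 to 4 correlated with each other across the 24169 tested probes (r = 0.67 to 0.76), while those of replicate 1 did not follow them (r = -0.16 to 0.06). Probes are not independent replicates, and these values describe the arrays only. The 28S ribosomal RNA probe Rn28s1 had a log2 ratio of 1.42 on replicate 1, against -2.49, -2.14 and -3.35 on replicates 2, 3 and 4. In the palmitate channels 61.9 to 70.7% of gene probes were well above background, and in the control channels 57.6 to 64.0%. No label sets replicate 1 apart, and the part that these differences play in any result was not tested. The members and the counts of the lists are therefore given with and without that array. Replicate 1 was singled out by these same ratios, so the adjusted p values without it are descriptive only. All 10 myoblast marker genes were measurable, Myod1 among them, while 5 of 8 adipocyte, 1 of 6 macrophage and 2 of 7 endothelial marker genes on the array gave no signal clear of background on any of the arrays. Of the 3 adipocyte genes that were tested, Lpl, a lipase gene that muscle also expresses, was higher by unadjusted p (log2 ratio 0.63 ± 0.26, SD, n = 4), and of the 4 macrophage and 2 endothelial genes tested none was higher or lower by it. The endothelial receptor gene Kdr had ratios of 0.98, -1.33, -1.09 and -0.93, and was lower at an adjusted p of 0.05 without replicate 1, where Lpl was higher and no macrophage gene passed.

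No member gene passed the test. At an adjusted p of 0.05 from limma, with or without a fold of 1.6, 0 of the 8 tested genes were called, and 0% of all tested probes. By unadjusted p under 0.05, which limma gave for 21.9% of all tested probes (10.8% higher, 11.1% lower), Ccng1 and Cdkn1b were above 0 and Cdkn1c was below 0. The 8 genes were split evenly, with 4 mean ratios above 0 and 4 below, and their median log2 ratio was 0.04, against 0.00 over all 13712 tested genes.

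**Figure D1:**
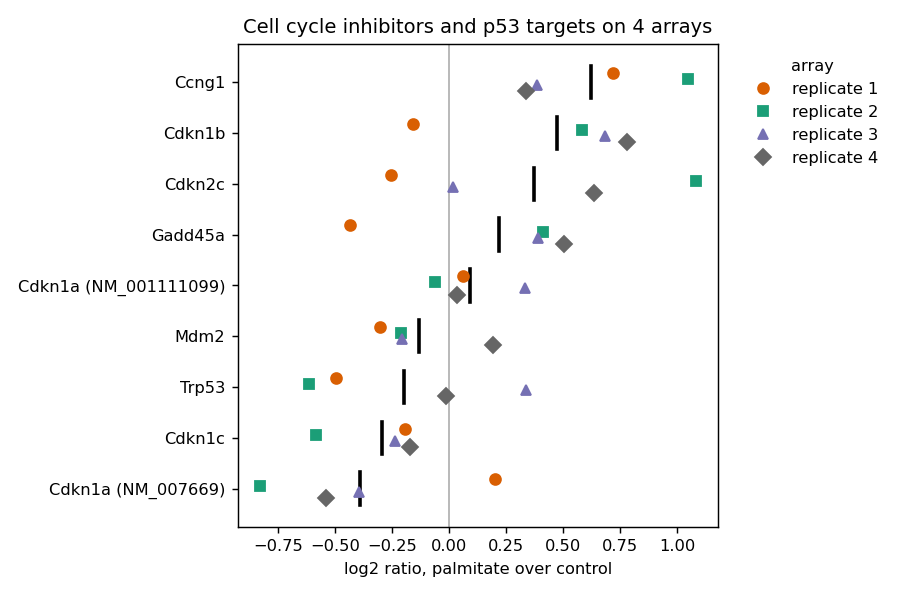
The log2 ratio of palmitate over control (horizontal axis) is shown for the 9 tested probes, with 1 symbol for each array and a vertical bar at the mean of 4 arrays. Ccng1 lay above 0 and Cdkn1c below 0 on all 4 arrays, and replicate 1 lay on the other side of 0 from replicates 2 to 4 for Cdkn1b, Gadd45a, Cdkn2c and the brighter Cdkn1a probe.

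Ccng1, which encodes cyclin G1, a p53-induced protein that recruits a phosphatase to Mdm2, had the largest mean ratio and the smallest p of the members. Its normalized log2 signals were 12.65, 13.18, 12.43 and 12.62 in the palmitate channels of replicates 1 to 4, against 11.94, 12.13, 12.05 and 12.28 in the control channels. The ranges of the channels did not overlap, which held for 12.2% of all tested probes. The log2 ratios were 0.72, 1.05, 0.39 and 0.34, so that the signal was stronger with palmitate on 4 of 4 arrays, as it was for 15.8% of tested probes. Replicates 1 and 2 were the high arrays, and on each array Ccng1 lay between the 87.8th and the 98.4th percentile of tested probes. The mean was 0.62 ± 0.33 (SD, n = 4 arrays), a 1.54-fold ratio with a 95% interval of 0.30 to 0.95 on the log2 scale, and the adjusted p from limma was 0.118. The exact two-sided sign-flip test gave 0.125, the smallest p that 4 arrays allow. Without replicate 1 the mean was 0.59 and the adjusted p 0.0393.

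The 5 tested genes whose 4 log2 ratios lay nearest to those of Ccng1 were Dram2, Ech1, Eef1a1, Prl2c1 and Extl2, at Euclidean distances of 0.20 to 0.27, against a median distance of 1.41 over the tested genes. Dram2, a membrane protein of the DRAM family that is linked to autophagy, had log2 ratios of 0.54, 1.02, 0.46 and 0.34. Ech1, a mitochondrial and peroxisomal enzyme of unsaturated fatty acid oxidation, had 0.56, 1.00, 0.48 and 0.25. Likeness over 4 arrays is a description only.

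The Cip/Kip inhibitors had mean ratios on both sides of 0, and none passed the test on 4 arrays. Cdkn1b, the gene of p27, a brake on CDK2 in quiescent cells, had normalized log2 signals of 11.48, 12.19, 12.47 and 12.81 with palmitate, against 11.65, 11.61, 11.79 and 12.03 in control. On replicate 1 the palmitate signal was slightly below its control, and on the other arrays it was above its own control. The log2 ratios were -0.16, 0.58, 0.69 and 0.78, with a mean of 0.47 ± 0.43 (SD, n = 4), a 1.39-fold ratio, and an adjusted p of 0.182 from limma. The mean of replicates 2 to 4 was 0.68 ± 0.10 (SD, n = 3), with an adjusted p of 0.0068, and Cdkn1b was then the 1 member to pass with a fold of 1.6, as 5.41% of tested probes did.

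Cdkn1a, the gene of p21 and the textbook target of p53, was measured by a pair of probes that gave different ratios. The brighter probe, annotated to NM_007669, was printed 10 times on each array. Its normalized log2 signals were 11.73, 10.83, 11.19 and 11.36 with palmitate, against 11.53, 11.66, 11.58 and 11.90 in control. Its log2 ratios were 0.20, -0.83, -0.39 and -0.54, with a mean of -0.39 ± 0.43 (SD, n = 4) and an adjusted p of 0.237 from limma. Only replicate 1 was above 0, and the other arrays were all below it. Without replicate 1 the mean was -0.59 ± 0.22 (SD, n = 3), with an adjusted p of 0.0164.

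The repeated spots measured the spread within an array. The 10 spots ranged from 0.15 to 0.24 on replicate 1, from -0.91 to -0.75 on replicate 2, from -0.44 to -0.34 on replicate 3 and from -0.57 to -0.51 on replicate 4. The spot ranges of the 4 arrays did not overlap. The pooled SD between spots of an array was 0.034, against an SD of 0.43 between arrays. The spots are technical repeats of 1 hybridization and were averaged to 1 value per array.

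**Figure D2:**
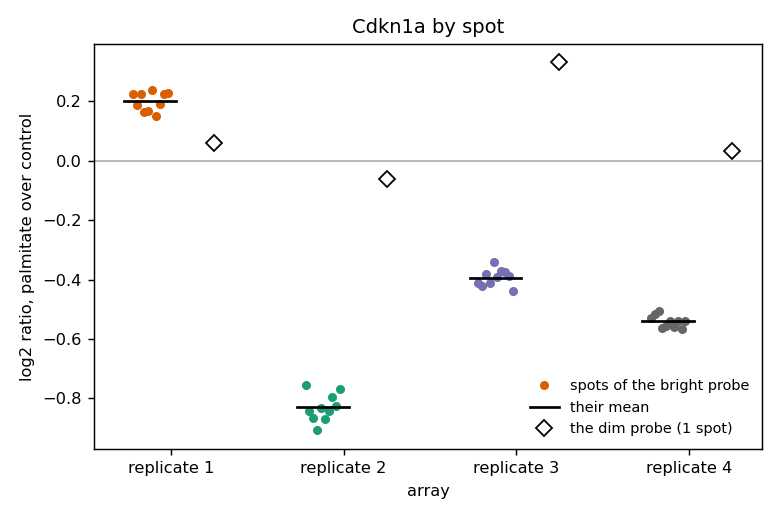
The log2 ratio of palmitate over control (vertical axis) is shown for every spot of the brighter Cdkn1a probe on each array (filled points, with their mean as a bar) and for the dimmer probe (open diamonds). The spots of an array lie close together, with a pooled SD of 0.034, while the means of the arrays run from -0.83 to 0.20.

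The dimmer Cdkn1a probe, annotated to the transcript NM_001111099, had normalized log2 signals of 7.95, 7.94, 8.13 and 8.06 with palmitate, against 7.89, 8.0, 7.79 and 8.02 in control. Its log2 ratios were 0.06, -0.06, 0.33 and 0.03, with a mean of 0.09 ± 0.17 (SD, n = 4), and it did not pass the test (adjusted p = 0.594 from limma). From the processed signals its mean was 0.25. The ratio of this probe lay above that of the brighter probe on replicates 2, 3 and 4 and below it on replicate 1. The promoter table does not pair its 2 starts with these transcripts, and the files do not say which of the transcripts each probe can bind.

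Cdkn1c, the imprinted gene of p57, was measurable in both channels of every array. Its normalized log2 signals were 7.97, 7.75, 7.99 and 8.34 with palmitate, against 8.16, 8.33, 8.23 and 8.51 in control, and the ranges of the channels overlapped. The log2 ratios were -0.19, -0.58, -0.24 and -0.17, lower with palmitate on 4 of 4 arrays, which held for 14.6% of tested probes. The mean was -0.30 ± 0.19 (SD, n = 4), with an adjusted p of 0.170 from limma. Its size depended on how background was handled, with -0.46 for uncorrected signals, -0.57 with a background floor and -0.67 from the processed signals, none past the adjusted p. Replicate 2 was the low array and the other 3 lay close together.

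Of the 3 INK4 genes among the members, Cdkn2c had a measurable signal and Cdkn2a and Cdkn2b had none. Cdkn2c, the gene of p18, had normalized log2 signals of 12.03, 12.80, 12.19 and 12.30 with palmitate, against 12.29, 11.72, 12.17 and 11.66 in control. Its log2 ratios of -0.25, 1.08, 0.02 and 0.63 spread more than those of any other member (mean 0.37 ± 0.60, SD, n = 4), and the adjusted p from limma was 0.364. Replicates 2 and 4 were high, replicate 3 lay at 0 and replicate 1 was low.

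Cdkn2a and Cdkn2b, which share a locus and encode p16, p19Arf and p15, had no reading well above background in the palmitate or the control channels. Both Cdkn2a probes and both Cdkn2b probes had normalized log2 signals of 6.74 to 7.02 and background-subtracted median signals of 1 to 27 intensity units. No ratio is given for these genes, since it would compare background with background. A reading near background says only that these probes had no measurable signal.

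**Figure D3:**
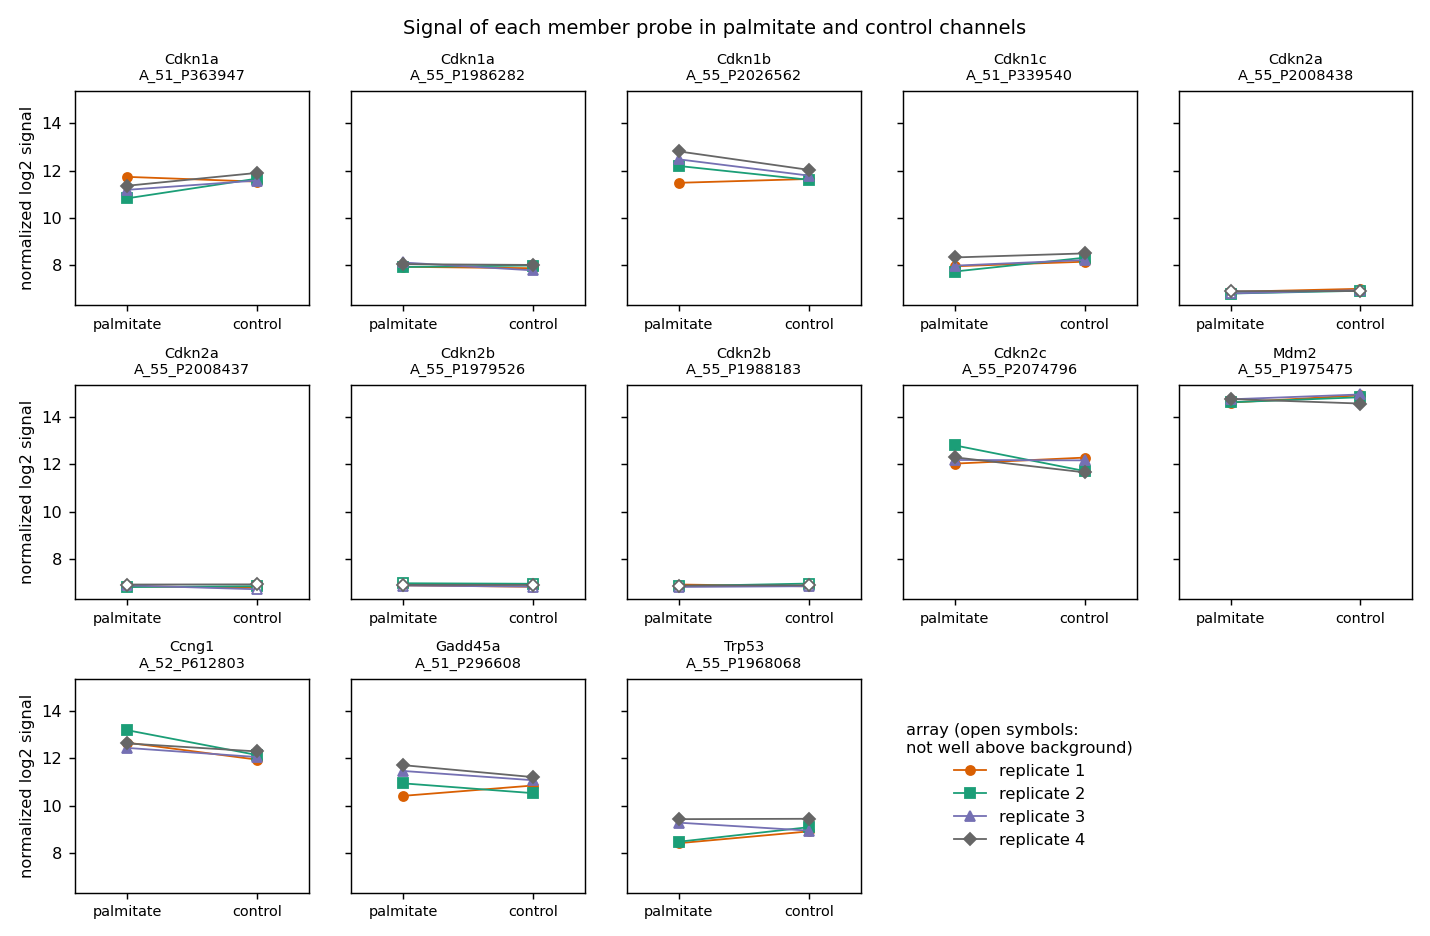
The normalized log2 signal (vertical axis) of each of the 13 probes is shown in the palmitate channel (left) and the control channel (right), with a line for each of 4 arrays. Filled symbols mark the 9 tested probes and open symbols the Cdkn2a and Cdkn2b probes, which lie flat near 6.9 in both channels.

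Trp53 itself had ratios that differed between arrays. Its normalized log2 signals were 8.42, 8.48, 9.28 and 9.43 with palmitate, against 8.91, 9.09, 8.95 and 9.45 in control. The log2 ratios were -0.50, -0.61, 0.33 and -0.02, and the mean of -0.20 ± 0.44 (SD, n = 4) had an adjusted p of 0.518 from limma. Replicates 1 and 2 were low, replicate 3 was high and replicate 4 lay near 0, so the arrays gave no common direction. p53 is controlled largely at the level of the protein, which arrays do not measure.

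Mdm2, at once a target of p53 and its main ubiquitin ligase, had normalized log2 signals of 14.60, 14.62, 14.74 and 14.75 with palmitate, against 14.91, 14.83, 14.95 and 14.56 in control. Its log2 ratios of -0.30, -0.21, -0.21 and 0.19 had a mean of -0.13 ± 0.22 (SD, n = 4), with a 95% interval of -0.39 to 0.12 and an adjusted p of 0.487 from limma. No spot of the member probes was saturated. The ratio was below 0 on replicates 1 to 3 and above 0 on replicate 4, and with median centring in place of loess the mean was 0.23, or 0.05 above the median of all probes there.

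Gadd45a, a stress-induced protein that binds PCNA and p21, had normalized log2 signals of 10.41, 10.94, 11.46 and 11.71 with palmitate, against 10.85, 10.53, 11.07 and 11.20 in control. The log2 ratios were -0.43, 0.41, 0.39 and 0.50, so that replicate 1 was lower with palmitate and the other 3 arrays were higher and close together. The mean was 0.22 ± 0.44 (SD, n = 4), with an adjusted p of 0.475 from limma. Without replicate 1 it was 0.44 ± 0.06 (SD, n = 3), with an adjusted p of 0.0200.

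The classical p53 targets among the members thus had different signs on the same arrays. The difference of Ccng1 minus Cdkn1a (brighter probe) in log2 ratio was 0.52, 1.88, 0.78 and 0.88, above 0 on 4 of 4 arrays including replicate 1, with a mean of 1.01 ± 0.60 (SD, n = 4). The exact two-sided sign-flip test gave 0.125, the smallest possible with 4 arrays. The pair was taken after the values were seen. The difference of Cdkn1b minus Cdkn1a was -0.36, 1.41, 1.08 and 1.32, above 0 on 3 of 4 arrays (exact p = 0.250).

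Leaving out replicate 1 was the only omission of an array after which members passed the test. As that array was singled out by its own ratios, the adjusted p values without it are descriptive. Without it, Ccng1, Cdkn1b and Gadd45a were higher and Cdkn1a was lower with palmitate at an adjusted p of 0.05 from limma, which is 4 of 8 genes (50%), against 17.9% of all tested probes (8.76% higher, 9.19% lower). Cdkn1c, Cdkn2c, Mdm2 and Trp53 did not pass there (adjusted p = 0.0811, 0.0760, 0.678 and 0.733). With replicate 2, 3 or 4 left out, 0 members and 0 of all probes passed, the smallest adjusted p over all probes being 0.442, 0.338 and 0.307 in that order. For 30.5% of tested probes replicate 1 had the opposite sign to the other 3 arrays, as it had for Cdkn1b, Gadd45a, Cdkn2c and the brighter Cdkn1a probe.

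**Figure D4:**
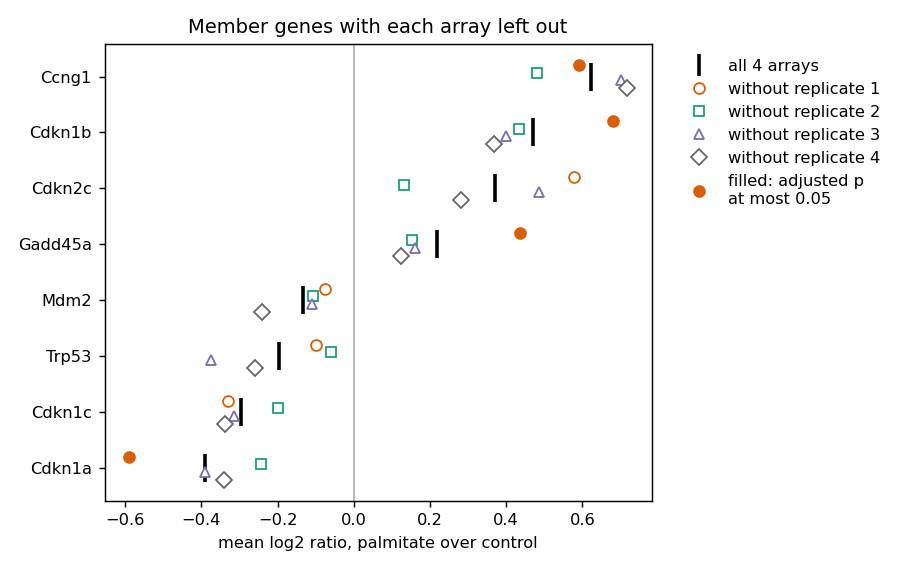
The mean log2 ratio, palmitate against control, of the 8 tested genes, by their brightest probe, is shown on the horizontal axis for all 4 arrays (bar) and with each array left out (symbols), filled where the adjusted p was at most 0.05. The filled symbols are those of Cdkn1a, Cdkn1b, Ccng1 and Gadd45a without replicate 1, and no mean changes its sign.

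The wider cell cycle and p53 genes were described by 1 probe each, the brightest. Over all 13712 tested genes, 10.8% were higher and 13.4% lower by unadjusted p under 0.05, and no gene of any list passed an adjusted p of 0.05 on 4 arrays. Among the 4 other genes with CDK inhibitor names, 0 were higher and 2 lower by unadjusted p. Cdkn2d, the gene of the fourth INK4 protein p19Ink4d, had log2 ratios of -0.42, -0.47, -0.24 and -0.37, below 0 on every array with a mean of -0.38 ± 0.10 (SD, n = 4; adjusted p = 0.118 from limma). Cdkn3, a phosphatase that acts on CDK2 and not a CDK inhibitor of these families, had -0.31 ± 0.19 (adjusted p = 0.159). Cdkn2aip, a binding partner of p19Arf, had 0.57 ± 0.71 (adjusted p = 0.251), with 1.53 on replicate 2 and -0.17 on replicate 1, and 0.95 as its mean from the processed signals. Without replicate 1, Cdkn2aip was higher and Cdkn2d and Cdkn3 were lower at an adjusted p of 0.05.

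Among 15 cyclins and CDKs, 1 was higher and 3 lower by unadjusted p, with a median log2 ratio of -0.09. Cdk6, a kinase that p18 binds, had log2 ratios of 0.07, 1.64, 1.06 and 0.27, all above 0 but far apart, with a mean of 0.76 ± 0.73 (SD, n = 4; adjusted p = 0.178 from limma). This mean was 1.08 without background correction, 1.52 with a background floor and 1.77 from the processed signals, still not past the adjusted p. Cdk4, the other INK4 target, had -0.23 ± 0.13 (adjusted p = 0.204), and the mitotic cyclin gene Ccnb2 had -0.23 ± 0.14 (adjusted p = 0.203). Both were below 0 on 4 of 4 arrays. With median centring in place of loess both were above 0, where the median of all probes was 0.18, and they lay at -0.005 (Cdk4) and -0.07 (Ccnb2) relative to it. Without replicate 1, Cdk6 was higher and the cyclin gene Ccna2 lower at an adjusted p of 0.05.

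Among 13 genes of the Rb and E2F families, through which CDK4 and CDK6 act on S-phase genes, 0 were higher and 2 lower by unadjusted p. E2f6 and E2f4, repressor E2Fs, had log2 ratios of -0.29 ± 0.15 and -0.19 ± 0.07 (SD, n = 4), and the pocket protein gene Rbl2 had 0.28 ± 0.34. With median centring E2f6 and E2f4 were above 0 but below the median of all probes, at -0.17 and -0.09 relative to it. Without replicate 1, Rbl2 was the 1 gene of these families to pass an adjusted p of 0.05, and it was higher. Of 10 tested genes of CDK inhibitor turnover, among them ubiquitin ligase subunits that mark p27 and p21 for destruction, 1 was higher and 2 lower. Cul1, the scaffold of the SCF ligase, had 0.48 ± 0.23 and was above 0 on 4 of 4 arrays. Pcna, the replication clamp on which p21 is degraded, had -0.44 ± 0.19, and Dtl, the substrate receptor there, had -0.22 ± 0.11, both below 0 on 4 of 4 arrays. With median centring Dtl was at 0.066 and Pcna at -0.064, which is -0.11 and -0.24 relative to the median of all probes. Without replicate 1, Cul1 and Fbxo4 were higher and Pcna was lower at an adjusted p of 0.05.

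Of 50 further p53 targets on the array, 48 were tested, and 8 were higher and 12 lower by unadjusted p (16.7% and 25% of those tested), with a median log2 ratio of 0.00. Mean ratios were above 0 for 24 and below 0 for 24. The 3 with the smallest p lay below 0 on 4 of 4 arrays. The next, Ckap2, a spindle protein gene named after its values were seen, had the highest mean of the list, 0.77 ± 0.52 (SD, n = 4; adjusted p = 0.127 from limma). Its log2 ratios were -0.0018 on replicate 1 and 1.10, 1.02 and 0.96 on replicates 2 to 4. Bax, which permeabilizes the outer mitochondrial membrane in apoptosis, had log2 ratios of -0.69, -0.87, -0.36 and -0.45 on replicates 1 to 4. Triap1, a p53-induced survival factor, had -0.32, -0.61, -0.29 and -0.70, and Gdf15, a secreted stress cytokine, had -0.30, -0.90, -0.44 and -0.37. The adjusted p from limma was 0.118 for Bax, 0.118 for Triap1 and 0.123 for Gdf15. Without replicate 1, 6 of the 48 were higher and 6 lower at an adjusted p of 0.05. Ckap2 was among the higher ones, and Bax, Triap1 and Gdf15 were among the lower ones.

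Of 29 tested p53 regulators, 6 were higher and 1 lower by unadjusted p, with a median log2 ratio of 0.06. Rpl5 and Rpl11, ribosomal proteins that can bind Mdm2 and hold it away from p53, had log2 ratios of 0.45 ± 0.16 and 0.45 ± 0.17 (SD, n = 4 each), above 0 on 4 of 4 arrays, with an adjusted p of 0.118 each from limma. Ube4b, a ubiquitin chain elongation factor for p53, had 0.60 ± 0.27 (adjusted p = 0.118). The probes of Rpl11 and Ube4b disagreed, since the dimmer probes of Rpl11 had 0.03 ± 0.09 and 0.10 ± 0.10 and that of Ube4b had -0.15 ± 0.25. From the processed signals the brightest Rpl11 probe had 0.27. Without replicate 1, 5 regulators were higher (Rpl5, Rpl11, Ube4b, Kat5 and Topors) and 1 was lower (Sirt1) at an adjusted p of 0.05.

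Proliferation and muscle genes give the state of the cells in which these inhibitors were read. Of 24 proliferation genes, 3 were higher and 3 lower by unadjusted p, and the median log2 ratio was -0.07. The licensing genes Mcm4 and Cdt1 had 0.44 ± 0.27 and -0.50 ± 0.35 (SD, n = 4), on opposite sides of 0. Of 10 myoblast genes, 3 were higher and 0 lower (Ncam1 0.37 ± 0.14, Chrna1 0.26 ± 0.13 and Myod1 0.24 ± 0.20), although a second Chrna1 probe had -0.17 ± 0.09 and the other Ncam1 probes had 0.21 ± 0.34 and 0.04 ± 0.34. The 14 tested genes of muscle differentiation had a median log2 ratio of 0.05, with 8 mean ratios above 0 and 6 below. Of these, 3 were higher and 0 lower by unadjusted p. They were the transcription factor gene Myog (0.30 ± 0.14), embryonic myosin Myh3 (0.32 ± 0.18) and slow troponin T Tnnt1 (0.31 ± 0.20), each above 0 on 4 of 4 arrays. None of these passed the adjusted test on 4 arrays. Without replicate 1, the proliferation genes Mki67 and Mcm4 and the myoblast gene Ncam1 were higher, Pcna was lower, and 0 genes of muscle differentiation passed. In bulk RNA fewer cells of a kind and less RNA per cell cannot be told apart.

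**Figure D5:**
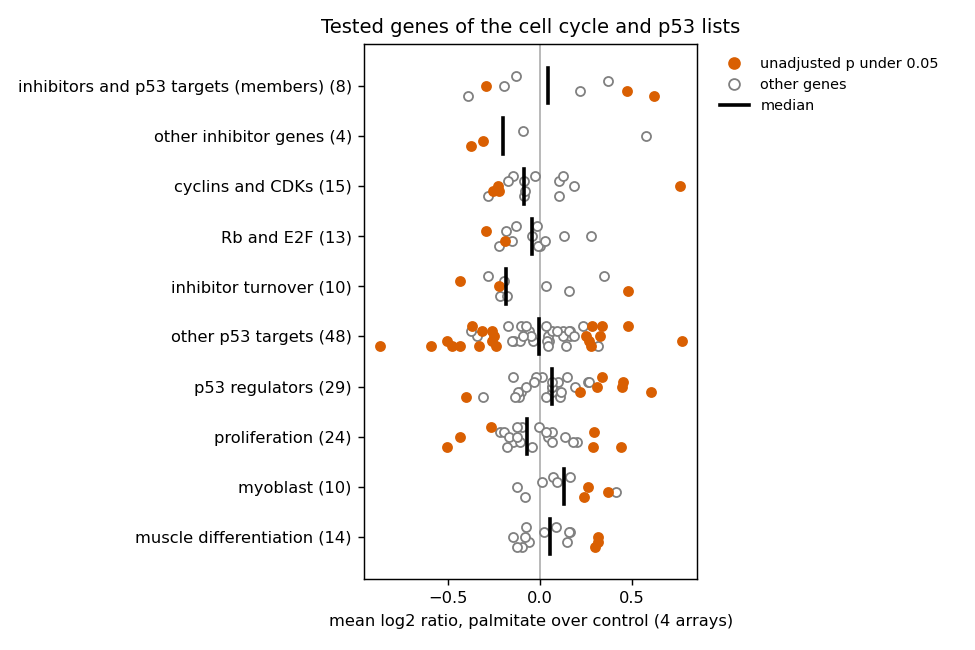
The mean log2 ratio of 4 arrays, palmitate against control (horizontal axis), is shown for each tested gene of 10 lists, with the number tested in brackets, filled points for an unadjusted p under 0.05 and a bar at the median of the list. All medians lie between -0.20 and 0.13, and 8 of 48 further p53 targets are filled above 0 and 12 below.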

How the data were processed

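RNA of palmitate and control C2C12 cultures was hybridized to 4 arrays of 1 slide, 1000 ng each. The authors read them with Agilent Feature Extraction 10.7.3.1 and deposited median spot and background signals, which are uncorrected intensity values, and processed signals, which are intensity values corrected by that software for background and dye. The deposited ratio column is log10 of cyanine-5 over cyanine-3. The deposited table holds log2 ratios of the processed signals, uncentred (array medians -0.07 to -0.16), checked for scale and direction against them and used as an alternative. The genome build of the array grid differs from that of the reference, so no probe coordinates are given.

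From the median signals, background was corrected by normexp (offset 50), dyes were normalized by loess within arrays and spots of a probe were averaged (limma 3.58.1, R 4.3.3, statmod 1.5.0). Outlier spots were dropped from the average, except where every spot of a probe was an outlier. For the normalized log2 signals of the channels, the mean log2 signal of each probe was also quantile normalized between arrays. That step left the ratios unchanged. A probe was tested if 1 channel or both had it well above background on every array, where repeated spots count by their majority (24169 of 39429, or 61.3%). The mean log2 ratio was tested against 0 with lmFit and eBayes, with Benjamini-Hochberg adjustment over all tested probes. The study's methods name an unpaired test. Here the cultures of an array are paired by the hybridization, and the fit without that block is an alternative. The replicates are separate cultures per the study's methods, and their number limits the precision.

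RefSeq accessions gave names to 26055 probes and left 13374 unnamed. Named genes are all members, up to 3 genes of smallest p per list, and the 5 genes nearest to Ccng1. The reference genes Actb, Rpl13a and Gapdh had log2 ratios of 0.74 ± 0.35, -0.02 ± 0.12 and 0.00 ± 0.29 (SD, n = 4) by their brightest probes, while the other 6 Gapdh probes lay at -0.53 to -0.21. The adipocyte, macrophage and endothelial lists are given as counts, with values for Lpl and Kdr only. The members and lists were chosen with earlier results of these data known. The fit was tested on simulated data. Alternatives changed background correction, dye normalization, filter, source of values, variance model, block, probe choice and replicates.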

Additional observations from a re-analysis of the deposited data

Results flagged for a closer look

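In 27 sets of 4 log2 ratios that were checked, 1 array stood apart from the other 3 by Dixon's ratio (the gap to the nearest array over the whole range, past the 95% critical value) in 2. Chance gives about 5% of such sets, and 5.50% of all tested probes had one. For Gadd45a the ratio was 0.879, and replicate 1 (-0.43) lay apart from 0.41, 0.39 and 0.50. For Cdkn1c it was 0.839, and replicate 2 (-0.58) lay apart from -0.19, -0.24 and -0.17.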

How the results depend on the processing

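The calls depended on replicate 1 and on the scaling of the dyes. Calls over all probes (fold of 1.6 and adjusted p of 0.05, main count 0 in each direction) were 557 higher and 751 lower without replicate 1, and 0 and 0 without replicate 2, 3 or 4. They were 4 higher with a background floor, 13 higher with the processed signals or the deposited table, 2 higher when probes with a high coefficient of variation were left out, 2 higher with 1 probe per gene, and 338 higher and 493 lower with array weights. The limit on the coefficient of variation left out the probes of Cdkn1b, Gadd45a and Trp53, and among the list genes those of E2f4 and Myod1, which have no value there. With no replicate block, which ignores the pairing of cultures on an array, there were 5 higher and 3 lower calls, and with the methods' t-test 1 and 2, with no member among them. Each channel shifted to its 75th percentile gave 366 and 3870 calls (median of all probes -0.19). No dye normalization gave 20346 and 26 (median 0.99). Both settings moved the median of all probes. Single genes also moved relative to it, as Mdm2 did, from -0.14 in the main fit to 0.05 without dye normalization. The 75th percentile setting also left out background correction. The number of members called was 1 without replicate 1 and 0 without each other replicate, 6 with no dye normalization and 2 with the 75th percentile. Genes of the other lists called were 7 without replicate 1 and 0 without each other replicate, 166 with no dye normalization, 10 with the 75th percentile and 4 with array weights.

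Without 1 replicate in turn, the mean log2 ratios ranged from -0.59 to -0.24 for Cdkn1a, 0.37 to 0.68 for Cdkn1b, 0.48 to 0.72 for Ccng1, 0.12 to 0.44 for Gadd45a, -0.34 to -0.20 for Cdkn1c, 0.13 to 0.58 for Cdkn2c, -0.24 to -0.08 for Mdm2 and -0.37 to -0.06 for Trp53. Array weights (0.42 for replicate 1 and 2.45 for replicate 4) put Cdkn1a at -0.49, Cdkn1b at 0.64 and Ccng1 at 0.51. Each was past the adjusted p, as 13.8% of all tested probes were there. The 75th percentile put Cdkn1c at -0.88 and Ccng1 at 0.69, both past the adjusted p, as 27.5% of all tested probes were there. It put Mdm2 at 0.011 and the dimmer Cdkn1a probe at -0.35. Relative to that setting's median these values were -0.69, 0.88, 0.20 and -0.16, in that order. Median centring gave 0.23 for Mdm2, 0.025 for Trp53, 0.11 for Ccnb2, 0.17 for Cdk4, 0.0085 for E2f6, 0.089 for E2f4 and 0.066 for Dtl, where the median of all probes was 0.18. All but Mdm2 lay below that median. The same setting left Cdkn1a at -0.10, Cdkn2d at -0.048, Cdkn3 at -0.018, Pcna at -0.064, Bax at -0.28, Triap1 at -0.18 and Gdf15 at -0.19. No dye normalization gave 1.57 for Cdkn1b, 1.48 for Cdkn2c, 1.73 for Ccng1 and 1.31 for Gadd45a, and turned the sign of Cdkn1a (0.71), Cdkn1c (0.63), Mdm2 (1.04), Trp53 (0.84), Cdkn2d (0.76), Cdkn3 (0.79), Ccnb2 (0.92), Cdk4 (0.98), E2f6 (0.82), E2f4 (0.90), Pcna (0.75), Dtl (0.88), Bax (0.54), Triap1 (0.63), Gdf15 (0.62) and Cdt1 (0.64). The median of all probes was 0.99 there. Of the genes whose sign turned, all but Mdm2 (0.05 relative to that median) stayed below it. They ran from -0.45 for Bax to -0.005 for Cdk4, with Cdkn1a at -0.28, while Ccng1 lay above it (0.74). The cause of these changes was not tested beyond the shift of the median. Signals near background limit Cdkn1c, Trp53 and the dimmer Cdkn1a probe most.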
